A study of Mus musculus with 82 samples.

Results

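Spp1, which encodes the secreted protein osteopontin, and 4 genes of leukotriene synthesis, Alox5, Alox5ap, Ltc4s and Lta4h, were followed through 82 RNA-seq libraries of mouse sciatic nerve. These 5 genes, of the 78305 gene names listed in any of the 8 count tables, were matched by symbol and found in all 8 tables. They were chosen by their measured levels, because Spp1 and Alox5 were lower in nerves labelled Mitf than in controls in the table with Ndrg1, so that contrast is described here without a test. The study asks how Mitf, a transcription factor, acts in Schwann cells, the glia of peripheral nerve, when axons are damaged.

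The libraries fell into 22 groups. Fig4 -/- and Fig4 +/+ nerves were taken at postnatal day 12 (P12) and at P4, with 3 libraries a group. Nerves labelled Mitf and DhhCre were taken at P21 (5 each), and nerves labelled Mitf and Egr2Cre at P12 (3 each). Nerves labelled Mitf were taken 3 days post injury or uninjured (4 each). Mutant and wild type nerves were taken 3, 7 and 14 days post injury (3 each), and the labels do not name the gene that is mutant. A further table held nerves labelled Egr2Cre Mitf and Mitf (3 each). The last held Mitf-Ndrg1 (5), Ndrg1 (5), Mitf (6) and control nerves (6). The labels give no age and no injury for these last 2 tables. They also give no age for the nerves of the injury experiments. Cre recombinase placed under Dhh or Egr2 control acts in cells that become or already are Schwann cells. The labels do not say which of these groups carries which allele, which libraries come from separate animals, or whether nerves were pooled, so p-values measure the spread between libraries, which may be technical.

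The targeted genes were examined first. Fig4 was at 3.04 to 5.87 CPM (estimated counts scaled to the size of the library) in Fig4 -/- nerves at P12, against 18.2 to 26.2 CPM in Fig4 +/+ nerves. Ndrg1 was at 160.5 to 191.3 CPM in the 2 groups with Ndrg1 in their label, against 1441 to 2052 CPM in the Mitf and control groups of that table. Mitf did not follow its label in this way. It was higher in the Mitf label than in the DhhCre label (17.6 to 21.99 against 4.31 to 7.03 CPM) and than in the Egr2Cre label at P12 (13.7 to 14.5 against 6.75 to 9.57 CPM). In the table with Ndrg1, by contrast, Mitf was lower in the Mitf label, at 10.5 to 14.7 CPM, than in controls, at 15.2 to 21.6 CPM. Directions below are therefore those of the labels. The 9 myelinating Schwann cell markers were detected in every group, none at 0. Total estimated counts ran from 15440000 to 34530000 a library. Transcripts of skeletal muscle were abundant in some libraries, with summed levels of the 10 muscle markers up to 137300 CPM at 14 days post injury, up to 64910 CPM in the Egr2Cre Mitf table and up to 31250 CPM in the Mitf label of the table with Ndrg1. In whole nerve, fewer cells of a type and less RNA per cell cannot be told apart.

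Osteopontin is a secreted phosphoprotein, first known from bone, that binds integrins and CD44. In nerve it is made by Schwann cells and by macrophages. Leukotrienes are lipid signals made from arachidonic acid, mainly in cells of the myeloid lineage. The protein encoded by Alox5ap, known as FLAP, presents arachidonic acid to 5-lipoxygenase, the product of Alox5, which makes leukotriene A4. That intermediate is turned into leukotriene B4, an attractant of neutrophils, by leukotriene A4 hydrolase (Lta4h), or into leukotriene C4, the parent of the cysteinyl leukotrienes, by leukotriene C4 synthase (Ltc4s).

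Spp1 (ENSMUSG00000029304.14) lies on chromosome 5 of mm10 between 104435118 and 104441050 on the plus strand, and its longest coding transcript in GENCODE vM21 has 6 exons and 1507 bases. Alox5 (ENSMUSG00000025701.12) lies on chromosome 6 between 116410077 and 116461178 on the minus strand, with 14 exons. Alox5ap is on chromosome 5 from 149264767 to 149288153 (plus strand, 5 exons), Ltc4s on chromosome 11 from 50236461 to 50238616 (minus strand, 5 exons) and Lta4h on chromosome 10 from 93453411 to 93484875 (plus strand, 19 exons). Spp1 overlaps the gene model Gm42793 on its own strand, and Alox5ap and Ltc4s overlap antisense models (Gm19719 and Gm26542). The strand setting of the counting is not given in the sources used here, so reads in those overlaps are of uncertain origin.

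The promoters of Spp1 and Alox5, the pair that set the choice of genes, were searched for the E-boxes CACGTG and CATGTG, which Mitf is known to bind, for TGANTCA, the site of AP-1, and for the GGGCGG and CCAAT boxes, on both strands. RefSeq promoters (GRCm38.p6) were found for 4 of the 5 genes, all but Alox5ap, and the 250 bases before the start were read. Below, capitals mark a CCAAT box in Spp1, read on the opposite strand as ATTGG, which begins 46 bases before the start, and a GGGCGG box in Alox5, which begins 35 bases before it. The windows are chr5:104434861-104435110 on the plus strand and chr6:116461179-116461428 on the minus strand, each printed 5′ to 3′ in the direction of the gene.
Spp1: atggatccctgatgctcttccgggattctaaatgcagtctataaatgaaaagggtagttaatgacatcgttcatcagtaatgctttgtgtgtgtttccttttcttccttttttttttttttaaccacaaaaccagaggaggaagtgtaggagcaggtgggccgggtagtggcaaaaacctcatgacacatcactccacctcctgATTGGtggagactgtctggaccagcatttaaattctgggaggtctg
Alox5: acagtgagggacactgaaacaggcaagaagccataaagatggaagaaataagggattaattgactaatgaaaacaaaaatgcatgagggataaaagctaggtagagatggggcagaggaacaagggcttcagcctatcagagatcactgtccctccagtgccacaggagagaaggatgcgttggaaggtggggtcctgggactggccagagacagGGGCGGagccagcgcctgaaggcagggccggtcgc
Neither E-box nor the AP-1 site was found in these windows, nor in those of Ltc4s and Lta4h, nor in the window of a second Spp1 start. Among 32851 RefSeq promoter windows of this length, 6.02% held CACGTG, 12.3% CATGTG, 6.75% TGANTCA, 32.7% GGGCGG and 33.8% CCAAT. Lta4h held CCAAT at 107 and at 60 bases before its start. A match is a description of the sequence only, and its absence concerns these windows alone.

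Spp1 differed widely between groups. Its group mean ran from 10.02 ± 2.60 CPM in Fig4 -/- nerves at P4 (SD, n = 3) to 3376 ± 381 CPM on day 3 after injury in wild type (SD, n = 3). In the order of the 22 group means, 4 of the 21 neighbouring pairs had ranges that did not overlap. These gaps lay above the P4 groups, between the Egr2Cre and Mitf labels at P12, above Fig4 +/+ at P12, and below the 2 groups of the time course at 3 days post injury. Alox5 was a low-level transcript throughout. Its group mean ran from 1.97 ± 0.486 CPM in Fig4 +/+ nerves at P12 (SD, n = 3) to 9.11 ± 1.53 CPM in controls of the table with Ndrg1 (SD, n = 6), and no neighbours in that order were apart. The tables were scaled separately, so an order across them sets side by side values that were not tested against each other. Per kilobase of transcript, Spp1 was the highest of the 5 genes in 19 of the 22 groups and Lta4h in the other 3, which were both P4 groups and Egr2Cre at P12. Alox5 was the lowest in 20 groups and Ltc4s in the other 2, both of Fig4 at P12.

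**Figure D1:**
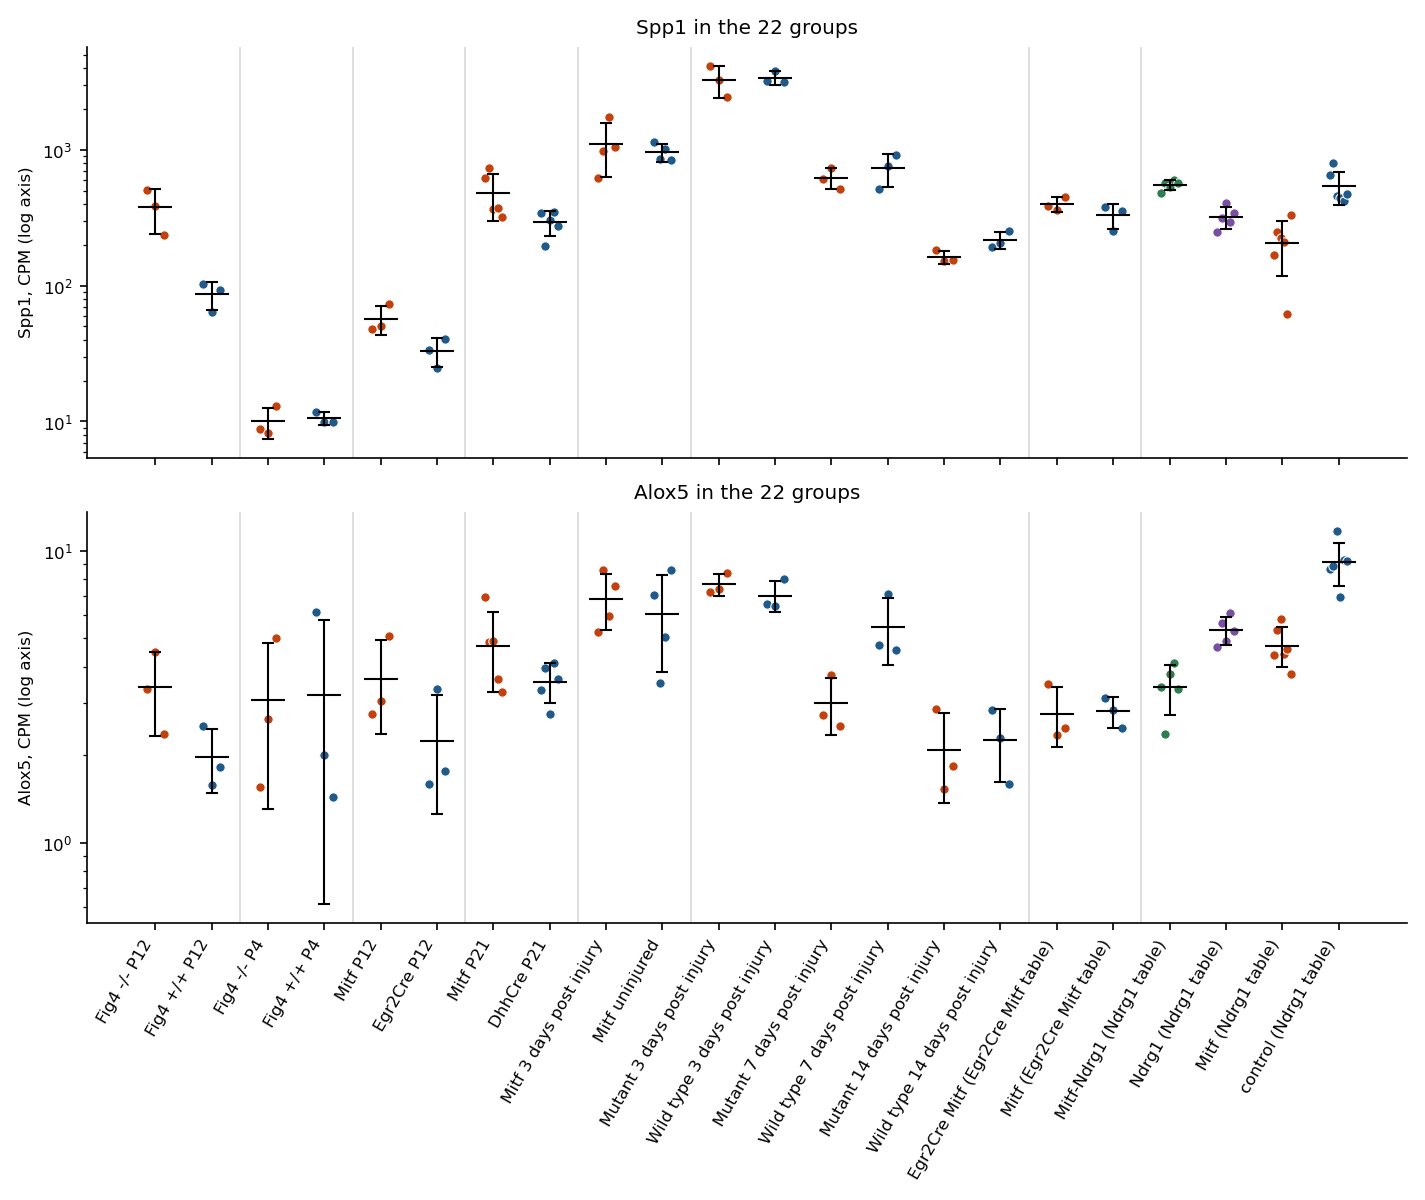
Levels of Spp1 (top) and Alox5 (bottom) in CPM on log axes in the 22 groups; points are libraries, the black bar is the mean and the whiskers are the SD. Vertical grey lines separate the 8 tables. Spp1 spans means from 10.02 to 3376 CPM and Alox5 from 1.97 to 9.11 CPM.

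In the table with Ndrg1, Spp1 and Alox5 had fold changes of opposite sign when nerves labelled Mitf-Ndrg1 were set against nerves labelled Ndrg1. Neither of these groups holds a library by which the genes were chosen. The fit over all groups of the table did use those libraries to estimate the spread, so the adjusted p is not free of them. Alox5 was lower in Mitf-Ndrg1 nerves and passed the test, Spp1 was higher in every Mitf-Ndrg1 library but did not pass, and the other 3 genes did not pass. Of the 15910 genes tested, 1.47% passed in either direction. Throughout, a gene passed when its adjusted p was under 0.05 over all genes of the comparison, by edgeR's quasi-likelihood test. A lack of overlap between groups is a description and no test. The share of all genes whose groups did not overlap was not counted.

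Alox5 was at 3.42, 2.36, 3.78, 4.13 and 3.35 CPM in the 5 Mitf-Ndrg1 libraries, against 4.69, 5.65, 4.92, 6.12 and 5.31 CPM in the 5 Ndrg1 libraries. Every Mitf-Ndrg1 library lay below every Ndrg1 library. The log2 fold change was -0.65 (SE 0.155, adjusted p = 0.0367). The call was close to the threshold: it was lost without any of 6 of the 10 libraries, Ndrg1 replicates 2, 4 and 5 and Mitf-Ndrg1 replicates 2, 3 and 5, with adjusted p between 0.0325 and 0.078 over the 10 omissions and a log2 fold change between -0.72 and -0.54. It was also lost with the muscle markers as a covariate (adjusted p = 0.0579) and when the 2 groups were fitted alone (adjusted p = 0.17).

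Spp1 was at 482.0, 569.4, 527.9, 597.0 and 571.2 CPM in the Mitf-Ndrg1 libraries, against 247.4, 314.4, 405.2, 295.8 and 344.0 CPM in the Ndrg1 libraries. The lowest Mitf-Ndrg1 library was above the highest Ndrg1 library. The log2 fold change of 0.77 (SE 0.281) had an adjusted p of 0.156 in the fit over all 4 groups, and of 0.03 when the 2 groups were fitted alone. The log2 fold changes of Alox5ap, Ltc4s and Lta4h were -0.17 (SE 0.136), 0.05 (SE 0.218) and 0.10 (SE 0.0861), with adjusted p of 0.554, 0.942 and 0.603. Macrophage markers, 12 genes of which none was at 0, summed to 3275 to 4580 CPM in Mitf-Ndrg1 nerves and 3194 to 4255 CPM in Ndrg1 nerves, ranges that overlap. The 10 muscle markers summed to 16.2 to 16490 CPM and 15.2 to 1093 CPM in the same groups, and apart from the covariate fit their part was not tested. The 11 repair Schwann cell markers summed to 378.1 to 535.8 CPM in Mitf-Ndrg1 nerves and 343.0 to 397.0 CPM in Ndrg1 nerves.

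The contrast that chose the genes is given for its values only. Spp1 had a lowest, median and highest level of 61.6, 217.3 and 329.1 CPM in the 6 Mitf libraries, against 421.7, 464.0 and 791.6 CPM in the 6 controls. Alox5 had 3.78, 4.52 and 5.81 CPM in Mitf libraries, against 6.93, 9.03 and 11.7 CPM in controls. For both genes every Mitf library was below every control, with log2 fold changes of -1.38 (SE 0.26) for Spp1 and -0.95 (SE 0.14) for Alox5, where 0.00629% of all genes passed the test. The library with the lowest Spp1, Mitf replicate 5, was not among the lowest in Alox5 (4.60 CPM), and without it the Spp1 fold change was -1.19. The other 3 genes overlapped between these groups, with log2 fold changes of -0.11 (SE 0.13) for Alox5ap, -0.23 (SE 0.206) for Ltc4s and -0.19 (SE 0.0786) for Lta4h. The 12 macrophage markers summed to 467.1 to 588.4 CPM in Mitf nerves and 451.6 to 601.9 CPM in controls. Thus Spp1 was lower in the Mitf label than in controls and higher in the Mitf-Ndrg1 label than in the Ndrg1 label, while Alox5 was lower in both; the difference between the 2 contrasts was not tested, because it contains the contrast that chose the genes.

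In nerves labelled Ndrg1 set against controls, 60.5% of all genes passed the test. The controls are libraries of the choosing contrast, so Spp1 and Alox5 are given here without a test. Alox5ap rose in Ndrg1 nerves, at 25.5, 29.1, 21.8, 23.1 and 28.8 CPM, against a lowest, median and highest of 7.35, 8.39 and 11.4 CPM in controls (log2 fold change 1.52, SE 0.134, adjusted p = 7.32e-10). The groups were far apart. Ltc4s rose by less and overlapped, at 4.41, 5.28, 3.08, 6.75 and 7.03 CPM in Ndrg1 nerves, against 2.50 to 3.87 CPM in controls (log2 fold change 0.85, SE 0.211, adjusted p = 0.0013). Alox5 had a log2 fold change of -0.77 (SE 0.147) and every Ndrg1 library lay below every control, though the groups overlapped with CPM of the total count. Spp1 had a log2 fold change of -0.75 (SE 0.271), also with no overlap. Lta4h did not pass, with a log2 fold change of -0.05 (SE 0.0825, adjusted p = 0.613).

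Beside these changes, the 12 macrophage markers summed to 3194 to 4255 CPM in Ndrg1 nerves, against 451.6 to 601.9 CPM in controls, and the 8 mast cell markers to 57.0 to 226.5 CPM against 16.4 to 85.4 CPM. Neutrophil markers, of which 6 of 10 were listed, summed to 12.5 to 21.2 CPM against 1.46 to 2.87 CPM, and the 9 myelin markers to 46430 to 59830 CPM against 155300 to 184900 CPM. Their part in the change of the 5 genes was not tested.

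Mitf-Ndrg1 nerves set against Mitf nerves, which also served the choosing contrast, had 57.6% of all genes past the test. Alox5ap rose in Mitf-Ndrg1 nerves (log2 fold change 1.45, SE 0.134, adjusted p = 1.93e-09), as did Ltc4s (1.12, SE 0.212, adjusted p = 7.53e-05) and Lta4h (0.23, SE 0.0822, adjusted p = 0.0179). Given without a test, the log2 fold change of Spp1 was 1.41 (SE 0.269), with no overlap, and that of Alox5 was -0.47 (SE 0.149), with overlap. In order of their means, Alox5 was lowest in Mitf-Ndrg1 nerves at 3.41 ± 0.664 CPM (SD, n = 5), followed by Mitf nerves at 4.73 ± 0.732 CPM (SD, n = 6) and Ndrg1 nerves at 5.34 ± 0.573 CPM (SD, n = 5), each overlapping the next. It was highest in controls at 9.11 ± 1.53 CPM (SD, n = 6), which overlapped none of the others.

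**Figure D2:**
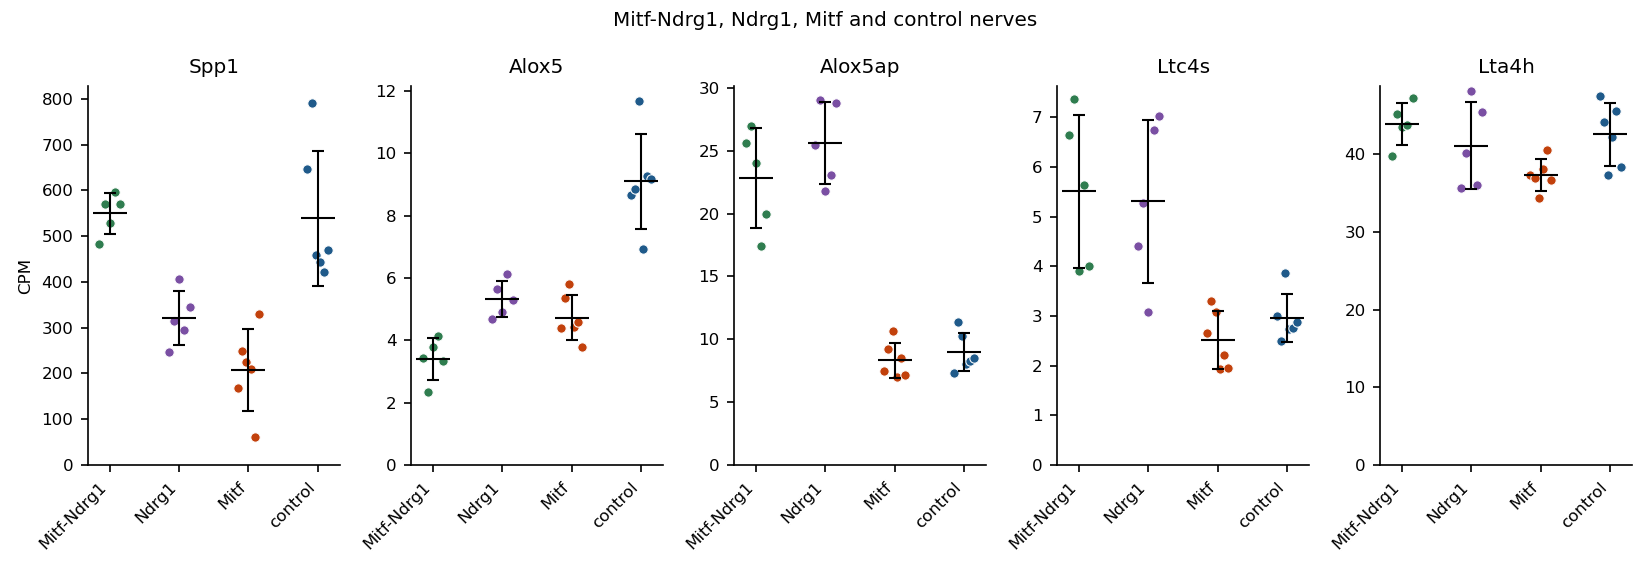
Levels in CPM of the 5 genes in Mitf-Ndrg1 (5 libraries), Ndrg1 (5), Mitf (6) and control nerves (6); points are libraries, the black bar is the mean and the whiskers are the SD, on axes that start at 0. Alox5 is lowest in Mitf-Ndrg1 nerves, Spp1 is high in Mitf-Ndrg1 and control nerves, and Alox5ap is high in both groups with Ndrg1 in their label.

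Fig4 -/- nerves had more Spp1 than Fig4 +/+ nerves at P12 and no detectable difference at P4. The Fig4 protein, a lipid phosphatase, is needed for normal endosomes and lysosomes. At P12, Spp1 was at 508.1, 386.0 and 235.8 CPM in Fig4 -/- nerves, against 102.8, 64.0 and 92.7 CPM in Fig4 +/+ nerves. The groups did not overlap, and the log2 fold change was 2.12 (SE 0.303, adjusted p = 0.014), where 3.03% of 14338 genes passed. The call was lost with the muscle covariate (1.81, adjusted p = 0.142) and without Fig4 +/+ replicate 1 (adjusted p = 0.0778), Fig4 +/+ replicate 3 (adjusted p = 0.0857) or Fig4 -/- replicate 2 (adjusted p = 0.0597), while the log2 fold change was between 1.84 and 2.36 over the 6 omissions. The muscle markers themselves were low here, at 5.28 to 7.87 CPM in Fig4 -/- nerves and 13.3 to 92.0 CPM in Fig4 +/+ nerves.

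At P4, Spp1 was low in both groups, at 8.87, 8.20 and 13.0 CPM in Fig4 -/- nerves and 11.8, 9.85 and 9.99 CPM in Fig4 +/+ nerves. The groups overlapped, and the log2 fold change was -0.07 (SE 0.214, adjusted p = 1). The difference between the ages, 2.20 on the log2 scale (SE 0.39), just missed the threshold (adjusted p = 0.0556; 0.167% of genes passed). The ages came in separate tables, so age and table cannot be told apart in it. The Spp1 age difference passed without the low-count filter (adjusted p = 0.0412), with the muscle covariate (adjusted p = 0.0239) and in DESeq2 (adjusted p = 6.22e-05). In other alternative fits of all libraries its adjusted p reached 0.455. Over the 12 omissions of a library it ran from 0.0265 to 0.202, and it passed in 2 of them.

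None of the leukotriene genes passed the test at P12, though the mean of each was higher in Fig4 -/- nerves. Alox5ap was at 10.7, 10.9 and 9.83 CPM in Fig4 -/- nerves, against 6.64, 6.22 and 4.84 CPM in Fig4 +/+ nerves, with no overlap (log2 fold change 0.83, SE 0.257, adjusted p = 0.115). Lta4h was at 65.1, 57.6 and 58.2 CPM against 41.8, 40.4 and 49.9 CPM, also with no overlap (0.45, SE 0.145, adjusted p = 0.124). Alox5 overlapped between the groups, at 3.35, 4.51 and 2.35 CPM in Fig4 -/- nerves against 2.51, 1.58 and 1.81 CPM in Fig4 +/+ nerves (0.79, SE 0.479, adjusted p = 0.443). Ltc4s was close to the floor and did not pass the filter, with estimated counts of 27, 21 and 5 in Fig4 -/- nerves and 1, 2 and 1 in Fig4 +/+ nerves.

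Beside these values, the 12 macrophage markers summed to 816.2 to 1069 CPM in Fig4 -/- nerves, against 507.2 to 605.3 CPM in Fig4 +/+ nerves. The 11 repair Schwann cell markers summed to 290.0 to 344.4 CPM against 53.7 to 62.3 CPM. Of the 10 neutrophil markers, 7 were at 0 in every Fig4 -/- library and 5 in every Fig4 +/+ library. The part of these cell types was not tested.

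At P4 none of the 5 genes passed, where 0.00672% of 14888 genes did. Alox5 ranged from 1.55 to 5.00 CPM in Fig4 -/- nerves and from 1.43 to 6.15 CPM in Fig4 +/+ nerves, Alox5ap from 10.2 to 21.9 and from 6.58 to 27.3 CPM, and Ltc4s from 2.32 to 5.26 and from 1.73 to 8.18 CPM. The same 2 libraries, Fig4 -/- replicate 3 and Fig4 +/+ replicate 1, held the highest value of all 3 genes in their groups. They also held the highest mast cell sums, 230.6 and 258.6 CPM against 31.8 to 60.01 CPM in the other 4 libraries, and the highest skeletal muscle sums, 10500 and 12950 CPM against 139.3 to 1904 CPM. The part of these cells in the 3 genes was not tested. Without Fig4 +/+ replicate 1 the log2 fold changes of Alox5, Alox5ap and Ltc4s were 0.83, 0.69 and 0.82, with adjusted p of 0.963 for each.

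**Figure D3:**
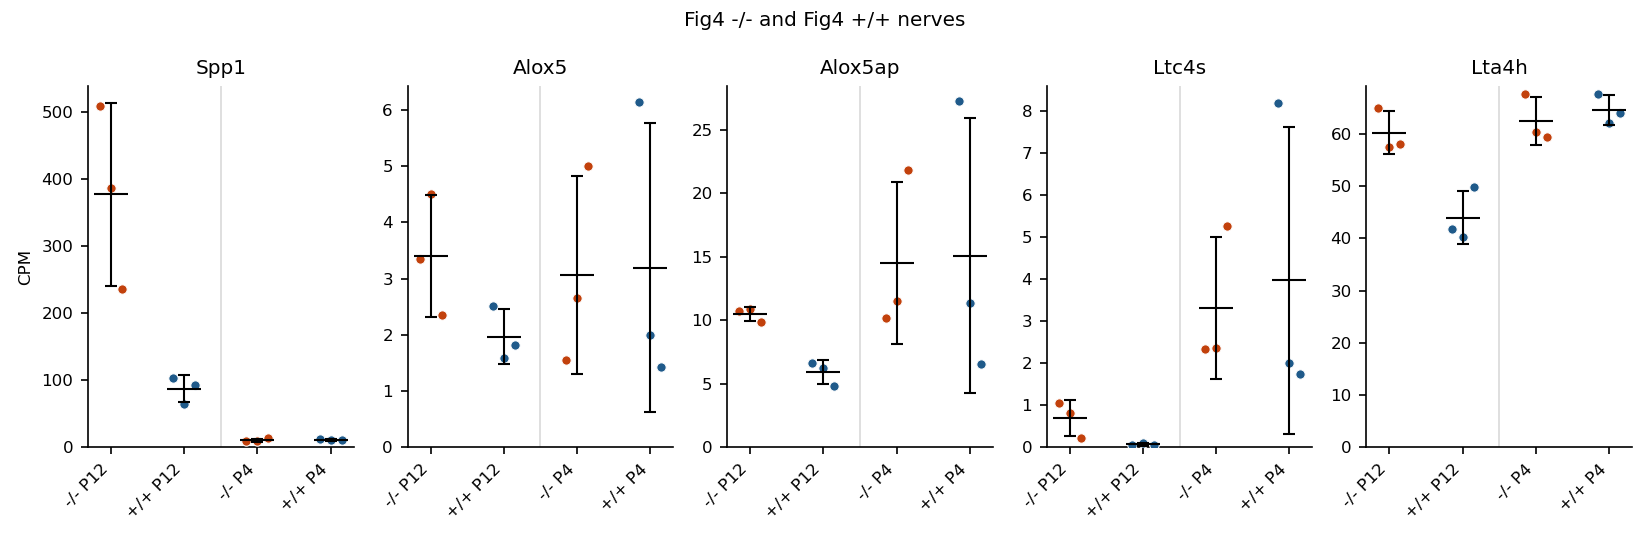
Levels in CPM of the 5 genes in Fig4 -/- and Fig4 +/+ nerves at P12 and at P4, with 3 libraries a group; points are libraries, the black bar is the mean and the whiskers are the SD, on axes that start at 0. Spp1 is at 235.8 to 508.1 CPM in Fig4 -/- nerves at P12, above all other groups shown.

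In the tables that set the Mitf label against a Cre label, no member passed the test. At P21 Spp1 was at 619.5, 734.5, 366.7, 369.1 and 320.4 CPM in the Mitf label, against 341.6, 195.0, 305.0, 348.7 and 274.7 CPM in the DhhCre label. The ranges overlapped in part, and the log2 fold change was 0.72 (SE 0.263, adjusted p = 1), where 0.0143% of 13943 genes passed, 2 genes (4 with the replicate number as a block). At P12 Spp1 was at 47.9, 50.1 and 72.8 CPM in the Mitf label, against 33.5, 24.8 and 40.6 CPM in the Egr2Cre label. Here the groups did not overlap (log2 fold change 0.79, SE 0.222, adjusted p = 1.00; 0.0139% of 14415 genes passed).

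The Alox5 mean was also higher in the Mitf label in both tables, with values of 6.96, 4.86, 4.89, 3.63 and 3.28 CPM in the Mitf label against 3.34, 3.96, 2.75, 4.12 and 3.65 CPM in the DhhCre label, and at 2.75, 3.05 and 5.11 CPM in the Mitf label against 1.59, 3.36 and 1.76 CPM in the Egr2Cre label. The groups overlapped in each table. The log2 fold changes were 0.41 (SE 0.205, adjusted p = 1) and 0.71 (SE 0.367, adjusted p = 1.00). Lta4h at P21 was at 49.3 to 58.1 CPM in the Mitf label, against 42.2 to 48.7 CPM in the DhhCre label, with a log2 fold change of 0.20 (SE 0.0685, adjusted p = 1); the groups did not overlap here but did with CPM of the total count. Ltc4s at P21 had a log2 fold change of 0.60 (SE 0.217, adjusted p = 1), and the remaining values of Alox5ap, Ltc4s and Lta4h in these tables lay between -0.07 and 0.49. Macrophage sums overlapped in both tables, at 595.1 to 732.3 CPM in the Mitf label against 507.7 to 683.1 CPM in the DhhCre label, and at 517.9 to 706.6 CPM in the Mitf label against 336.2 to 605.5 CPM in the Egr2Cre label.

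In the table of Egr2Cre Mitf against Mitf nerves, no gene of 15482 passed in edgeR (0%), 671 had an unadjusted p under 0.05, and DESeq2 called 7. Spp1 was at 385.3, 357.5 and 450.7 CPM in Egr2Cre Mitf nerves, against 381.2, 251.3 and 351.0 CPM in Mitf nerves (log2 fold change 0.28, SE 0.186, adjusted p = 0.846). Alox5 was at 3.49, 2.34 and 2.47 CPM against 3.14, 2.85 and 2.46 CPM (-0.02, SE 0.241, adjusted p = 0.988). Both genes overlapped between the groups. Ltc4s had the largest change of the 5, a log2 fold change of 0.66 (SE 0.286, adjusted p = 0.846). All 6 libraries carried muscle transcripts, at 15290 to 64910 CPM over the 10 markers.

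Injury was examined in nerves labelled Mitf, where Alox5ap and Ltc4s rose and Spp1 and Alox5 did not pass the test. Of 15245 genes, 22.1% passed. Alox5ap was at 35.9, 96.9, 46.7 and 49.1 CPM 3 days post injury, against 21.5, 9.25, 25.7 and 24.4 CPM in uninjured nerves, without overlap (log2 fold change 1.498, SE 0.386, adjusted p = 0.0257). Ltc4s was at 15.2, 34.4, 23.7 and 10.1 CPM post injury, against 5.48, 4.29, 6.46 and 8.34 CPM, also without overlap (1.76, SE 0.372, adjusted p = 0.0105). In the path to cysteinyl leukotrienes, FLAP hands the substrate to 5-lipoxygenase and leukotriene C4 synthase acts after it.

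Spp1 was at 620.1, 981.6, 1731 and 1050 CPM 3 days post injury, against 1144, 854.5, 1016 and 832.7 CPM in uninjured nerves. The injured libraries surrounded the uninjured ones on both sides, and the log2 fold change was 0.19 (SE 0.278, adjusted p = 0.675). Without replicate 3 of the injured nerves it was -0.12. Alox5 also overlapped (0.17, SE 0.326, adjusted p = 0.749), as did Lta4h (0.29, SE 0.123, adjusted p = 0.113). The Alox5ap call was lost without uninjured replicate 1 (adjusted p = 0.0645) or 4 (adjusted p = 0.0541) or injured replicate 2 (adjusted p = 0.0502), and with the muscle covariate (adjusted p = 0.117) or no low-count filter (adjusted p = 0.0763). The Ltc4s call was lost with the muscle covariate (adjusted p = 0.0516). Macrophage markers summed to 883.9 to 2374 CPM post injury and 457.0 to 1140 CPM in uninjured nerves, and neutrophil markers to 7.84 to 25.4 CPM and 1.48 to 4.40 CPM; their part was not tested.

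The time course after injury showed the steepest change of Spp1. In Mutant nerves Spp1 was at 4147, 3227 and 2425 CPM on day 3, at 608.6, 735.3 and 516.8 CPM on day 7, and at 183.6, 150.3 and 153.0 CPM on day 14. In wild type nerves it was at 3196, 3814 and 3119 CPM on day 3, at 516.7, 758.5 and 919.8 CPM on day 7, and at 192.6, 205.8 and 251.4 CPM on day 14. No day overlapped with the next in either genotype. In Mutant nerves Spp1 fell by 2.40 on the log2 scale by day 7 (SE 0.248, adjusted p = 8.57e-06; 33.4% of 15852 genes passed) and by a further 1.93 by day 14 (SE 0.244, adjusted p = 0.000417; 17.7% passed). In wild type nerves it fell by 2.21 (SE 0.246, adjusted p = 1.03e-05; 39.1% passed) and then by 1.76 (SE 0.243, adjusted p = 0.0022; 7.41% passed).

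The day-3 levels of this table stood well above those of the Mitf label 3 days post injury, 620.1 to 1731 CPM, in a table scaled on its own. Myelin markers also differed between these sets, at 37450 to 92500 CPM in the injured Mitf label and at 2804 to 3573 CPM in the Mutant and wild type nerves on day 3. The labels do not give the kind of injury.

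Alox5 was lower on day 14 than on day 3 in both genotypes. In Mutant nerves it was at 7.19, 7.40 and 8.39 CPM on day 3, at 2.73, 3.76 and 2.51 CPM on day 7 and at 2.88, 1.52 and 1.83 CPM on day 14. In wild type nerves it was at 6.55, 6.46 and 7.99 CPM on day 3, at 4.76, 7.10 and 4.58 CPM on day 7 and at 2.85, 2.29 and 1.59 CPM on day 14. The fall in Mutant nerves passed between days 3 and 7 (log2 fold change -1.35, SE 0.262, adjusted p = 0.00123) and not between days 7 and 14 (-0.52, SE 0.273, adjusted p = 0.19). The fall in wild type nerves passed between days 7 and 14 (-1.29, SE 0.271, adjusted p = 0.0169) and not between days 3 and 7 (-0.35, SE 0.255, adjusted p = 0.296).

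The direct test did not separate the genotypes. On day 7 every Mutant library was below every wild type library for Alox5, with a log2 fold change of -0.87 (SE 0.263) that did not pass (adjusted p = 0.238), and the interaction of genotype and time had an adjusted p of 0.358, where 0.082% of genes passed. The wild type call from day 7 to 14 was lost without wild type day-7 replicate 2 (adjusted p = 0.0884) or day-14 replicates 2 (adjusted p = 0.0657) or 3 (adjusted p = 0.087), and when the 2 groups were fitted alone (adjusted p = 0.0635). The Mutant call from day 3 to 7 was lost with the muscle covariate (-0.97, adjusted p = 0.0577).

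Alox5ap and Ltc4s fell between days 3 and 7 in both genotypes. Alox5ap averaged 127 ± 28.1, 49.1 ± 16.5 and 45.7 ± 14.4 CPM in Mutant nerves on days 3, 7 and 14, and 143 ± 16.8, 65.2 ± 2.16 and 51.7 ± 1.29 CPM in wild type nerves (SD, n = 3 each). Between days 3 and 7 it fell by 1.38 on the log2 scale in Mutant nerves (SE 0.233, adjusted p = 0.000462) and by 1.13 in wild type nerves (SE 0.232, adjusted p = 0.00143). Ltc4s averaged 41.2 ± 8.44, 16.1 ± 3.91 and 10.3 ± 4.38 CPM in Mutant nerves and 43.4 ± 4.90, 15.2 ± 1.80 and 15 ± 3.79 CPM in wild type nerves on the same days. It fell by 1.36 in Mutant nerves (SE 0.276, adjusted p = 0.00166) and by 1.51 in wild type nerves (SE 0.277, adjusted p = 0.000624) between days 3 and 7. On these days macrophage markers summed to 3761 to 4696 and 3934 to 4233 CPM in wild type nerves. In Mutant nerves the sums were 3128 to 6702 and 1742 to 3898 CPM. Repair Schwann cell sums were 1990 to 2065 and 568.9 to 1004 CPM in wild type. In Mutant nerves they were 1980 to 2487 and 622.7 to 1468 CPM. Neutrophil sums were 41.2 to 80.8 and 10.6 to 13.3 CPM in wild type, and 18.6 to 42.35 and 8.13 to 28.5 CPM in Mutant nerves. Their part in the fall of Spp1, Alox5ap and Ltc4s was not tested. Neither Alox5ap nor Ltc4s passed between days 7 and 14 in either genotype. The Mutant value of Ltc4s for that step was a log2 fold change of -0.65 (adjusted p = 0.115), and it passed without day-14 replicate 1 (-1.01, adjusted p = 0.0312). Lta4h, the enzyme of the other branch, stayed between 56.6 and 89.8 CPM in all 18 libraries and passed only between days 7 and 14 in Mutant nerves (log2 fold change -0.36, SE 0.113, adjusted p = 0.0412), a call that was lost in 5 of the 6 omissions of a Mutant library (highest adjusted p = 0.132), with the muscle covariate (adjusted p = 0.346), without the low-count filter (adjusted p = 0.125) and with the 2 groups alone (adjusted p = 0.251).

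Between genotypes, none of the 5 genes passed on any day. On days 3 and 7 no gene of 15852 passed in edgeR (0%); 299 and 2094 had an unadjusted p under 0.05, and DESeq2 called 0 and 244. On day 14, 8.29% passed. Spp1 had log2 fold changes of -0.05 (SE 0.236), -0.24 (SE 0.236) and -0.42 (SE 0.236) on days 3, 7 and 14, with adjusted p of 1, 0.676 and 0.254, and on day 14 every Mutant library was below every wild type library. With CPM of the total count, without TMM scaling, the day-14 groups overlapped, at 179.8, 107.9 and 192.1 CPM in Mutant nerves against 174.7, 151.0 and 200.8 CPM in wild type nerves. The Mutant group on day 14 held 17.9 to 209.6 CPM of neutrophil markers, against 8.86 to 25.7 CPM in wild type nerves, and muscle sums of 5412 to 137300 CPM against 9159 to 108600 CPM. Macrophage markers on day 7 summed to 1742 to 3898 CPM in Mutant nerves and 3934 to 4233 CPM in wild type nerves, the day on which Alox5 was lower in Mutant libraries; their part was not tested.

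**Figure D4:**
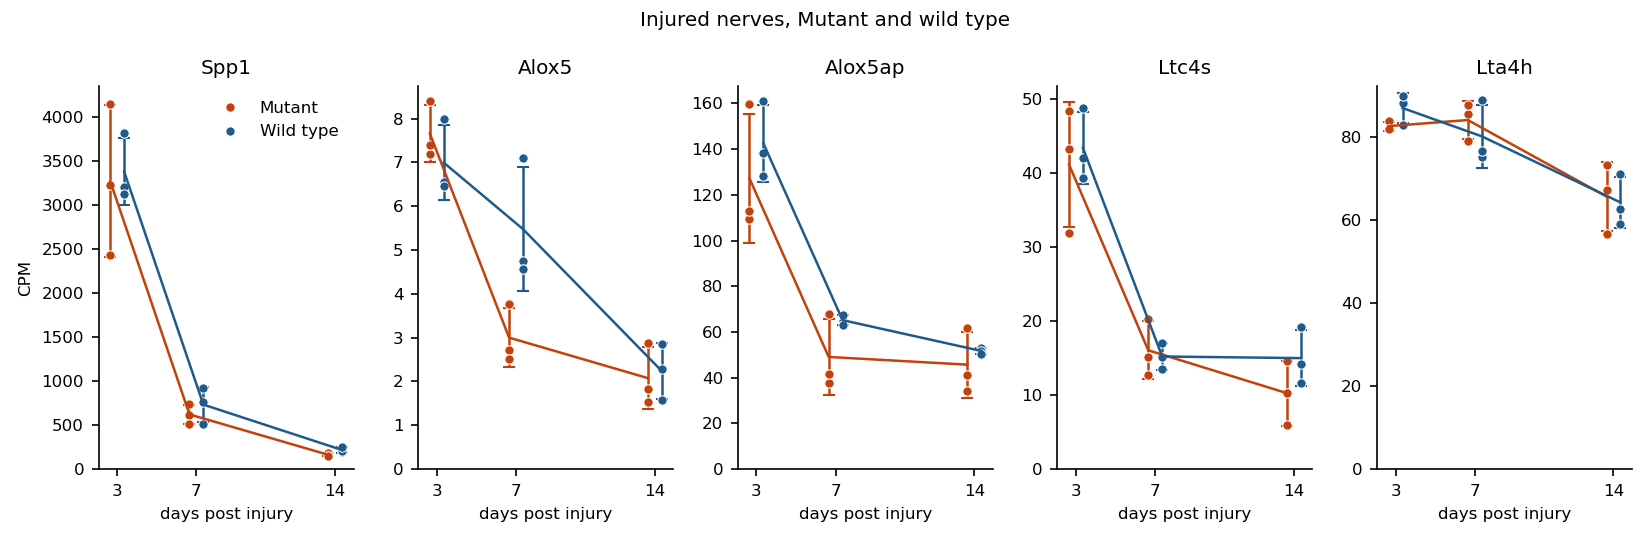
Levels in CPM of the 5 genes in Mutant and wild type nerves 3, 7 and 14 days post injury, 3 libraries a group; points are libraries, lines join the means and whiskers are the SD, on axes that start at 0. Spp1 falls at each step in both genotypes, and Alox5 on day 7 lies at 2.51 to 3.76 CPM in Mutant nerves and 4.58 to 7.10 CPM in wild type nerves.

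Cd44, one of the receptors of osteopontin, rose in Fig4 -/- nerves at P12 to 101 ± 10.3 CPM, against 23.1 ± 2.00 CPM in Fig4 +/+ nerves (SD, n = 3 each; log2 fold change 2.12, SE 0.147, adjusted p = 1.43e-05), and it fell with Spp1 from day 3 to 7 in Mutant (-1.35, adjusted p = 1.7e-05) and wild type nerves (-1.68, adjusted p = 1.71e-06). In Ndrg1 nerves, where Spp1 was lower than in controls, Cd44 was higher, at 92.1 ± 10.5 CPM (SD, n = 5) against 20.03 ± 2.13 CPM (SD, n = 6; log2 fold change 2.20, SE 0.109, adjusted p = 2.75e-14). It also rose 3 days post injury (2.61, SE 0.211, adjusted p = 0.000435), where Spp1 did not pass. Of the 10 listed osteopontin receptors, 1 of 9 tested passed in Fig4 at P12, where 3.03% of all genes did, and 5 of 9 post injury (3 higher, 2 lower), where 22.1% did. In Ndrg1 nerves 7 of 10 passed (4 higher, 3 lower), near the 60.5% of all genes. In Mitf-Ndrg1 against Ndrg1 nerves 0 of 10 passed, where 1.47% of all genes did, and the median log2 fold change of the receptors was 0.21 against 0.00014 over all genes.

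Of the 12 genes that modify or cleave osteopontin, 10 were tested in the table with Ndrg1. In Mitf-Ndrg1 against Ndrg1 nerves only Plat, which encodes tissue plasminogen activator, passed (0.54, SE 0.0954, adjusted p = 0.00796). Of all genes, 1.47% passed in that comparison, which was 234 genes, and 31 passed when the compared groups were fitted alone. Whether Plat was among those 31 was not recorded. In Ndrg1 nerves against controls 6 rose and 1 fell, a share near the 60.5% of all genes that passed, with a median of 1.00 against 0.0197 over all genes; among them were the macrophage elastase Mmp12 (7.84, SE 0.395, adjusted p = 2.32e-13) and the urokinase Plau (2.58, SE 0.154, adjusted p = 1.16e-12). Fam20c, the kinase that phosphorylates osteopontin, fell from day 3 to 7 in Mutant (-1.74, SE 0.29, adjusted p = 0.000402) and wild type nerves (-1.91, SE 0.293, adjusted p = 0.000151). Ctsd, a lysosomal protease, rose in Fig4 -/- nerves at P12 (1.23, SE 0.137, adjusted p = 0.000531). Of the 8 genes of the osteopontin family and bone matrix, 4 were tested in most tables. Mgp, matrix Gla protein, rose post injury (1.44, SE 0.319, adjusted p = 0.014) and in Ndrg1 nerves (2.03, SE 0.159, adjusted p = 2.37e-10), and rose from day 3 to 7 in Mutant (1.04, adjusted p = 0.000168) and wild type nerves (0.98, adjusted p = 0.000184).

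A further list held 14 neighbours of the leukotriene enzymes, which supply arachidonic acid, help or replace Ltc4s, or export leukotrienes. None of the 14 tested passed in Mitf-Ndrg1 against Ndrg1 nerves (median 0.06), where 1.47% of all genes did. In Ndrg1 nerves against controls, where 60.5% of all genes passed, 6 rose and 6 fell, with a median of -0.17 against 0.0197 over all genes. Cotl1, a partner of 5-lipoxygenase, rose (1.38, SE 0.105, adjusted p = 6.42e-11). Pla2g4a, the cytosolic phospholipase that frees arachidonic acid, rose (0.80, SE 0.171, adjusted p = 0.000262), and the secreted phospholipase Pla2g5 fell (-2.66, SE 0.182, adjusted p = 8.97e-12). In Fig4 -/- nerves at P12, 2 of 12 passed, where 3.03% of all genes did. They were the microsomal glutathione transferase Mgst1 (1.56, SE 0.175, adjusted p = 0.00057) and Cotl1 (0.91, SE 0.167, adjusted p = 0.0136). From day 3 to 7, Abcc1, the exporter of leukotriene C4, fell in Mutant (-1.39, SE 0.201, adjusted p = 0.000142) and wild type nerves (-1.48, SE 0.202, adjusted p = 5.98e-05), and Pla2g4a rose in both (0.58, adjusted p = 0.0287, and 0.98, adjusted p = 0.000991). In Mutant against wild type nerves on day 14, Mgst1 was lower (-1.15, SE 0.292, adjusted p = 0.0285) and Dicer1, whose product binds 5-lipoxygenase, higher (0.74, SE 0.168, adjusted p = 0.0184). Of all genes, 8.29% passed there. When these groups were fitted alone 0 genes passed, so both calls were lost.

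Of the receptors and breakdown enzymes of leukotrienes, none of 9 tested passed in Mitf-Ndrg1 against Ndrg1 nerves, where 1.47% of all genes did. In Ndrg1 nerves against controls 8 of 9 passed, 5 higher and 3 lower, where 60.5% of all genes passed. The leukotriene B4 receptor Ltb4r1 fell between days 3 and 7, in Mutant nerves to 1.07 ± 0.252 CPM on day 7, against 3.73 ± 0.364 CPM on day 3 (SD, n = 3 each; -1.79, SE 0.227, adjusted p = 4.74e-05), and in wild type nerves to 1.42 ± 0.159 CPM, against 4.24 ± 0.533 CPM (-1.57, SE 0.223, adjusted p = 7.94e-05). Dpep2, a dipeptidase that turns leukotriene D4 into E4, rose post injury (2.09, SE 0.467, adjusted p = 0.0127) and in Ndrg1 nerves (2.25, SE 0.293, adjusted p = 4.03e-07), as did Ptgr1, which degrades leukotriene B4 (2.37, SE 0.337, adjusted p = 0.00338, and 0.62, SE 0.117, adjusted p = 6.59e-05). Cyp4f18, which inactivates leukotriene B4 in mouse neutrophils, rose in Ndrg1 nerves (3.39, SE 0.344, adjusted p = 9.03e-09).

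In the prostaglandin branch, which competes for arachidonic acid, 2 of 17 tested genes passed in Mitf-Ndrg1 against Ndrg1 nerves. Of all genes, 1.47% passed there. The 2 were higher: the prostaglandin transporter Slco2a1 (0.90, SE 0.193, adjusted p = 0.0219) and the receptor Ptger3 (1.80, SE 0.45, adjusted p = 0.0466). With the compared groups fitted alone 31 genes passed in place of 234. Whether Slco2a1 and Ptger3 were among them was not recorded. In Ndrg1 nerves against controls 10 rose and 1 fell, a share near the 60.5% of all genes that passed, led by the prostaglandin D synthase Hpgds (3.04, SE 0.131, adjusted p = 2.74e-15). In Fig4 -/- nerves at P12 the other prostaglandin D synthase, Ptgds, was the only one of 16 to pass (3.02, SE 0.595, adjusted p = 0.0189). Of all genes, 3.03% passed in that comparison. Of the other lipoxygenases and the receptors of resolving lipids, few were tested, 3 to 6 of 12 a table. Lgr6, a receptor of resolving lipids, rose post injury (3.04, SE 0.382, adjusted p = 0.00195) and fell from day 3 to 7 in Mutant (-2.85, adjusted p = 0.000111) and wild type nerves (-3.57, adjusted p = 1.61e-05). In the Mitf label against the DhhCre and Egr2Cre labels, and in Egr2Cre Mitf against Mitf nerves, no gene of these 7 lists passed. Over all genes, 0.0143%, 0.0139% and 0% passed in these comparisons, so this says nothing particular about the lists.

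**Figure D5:**
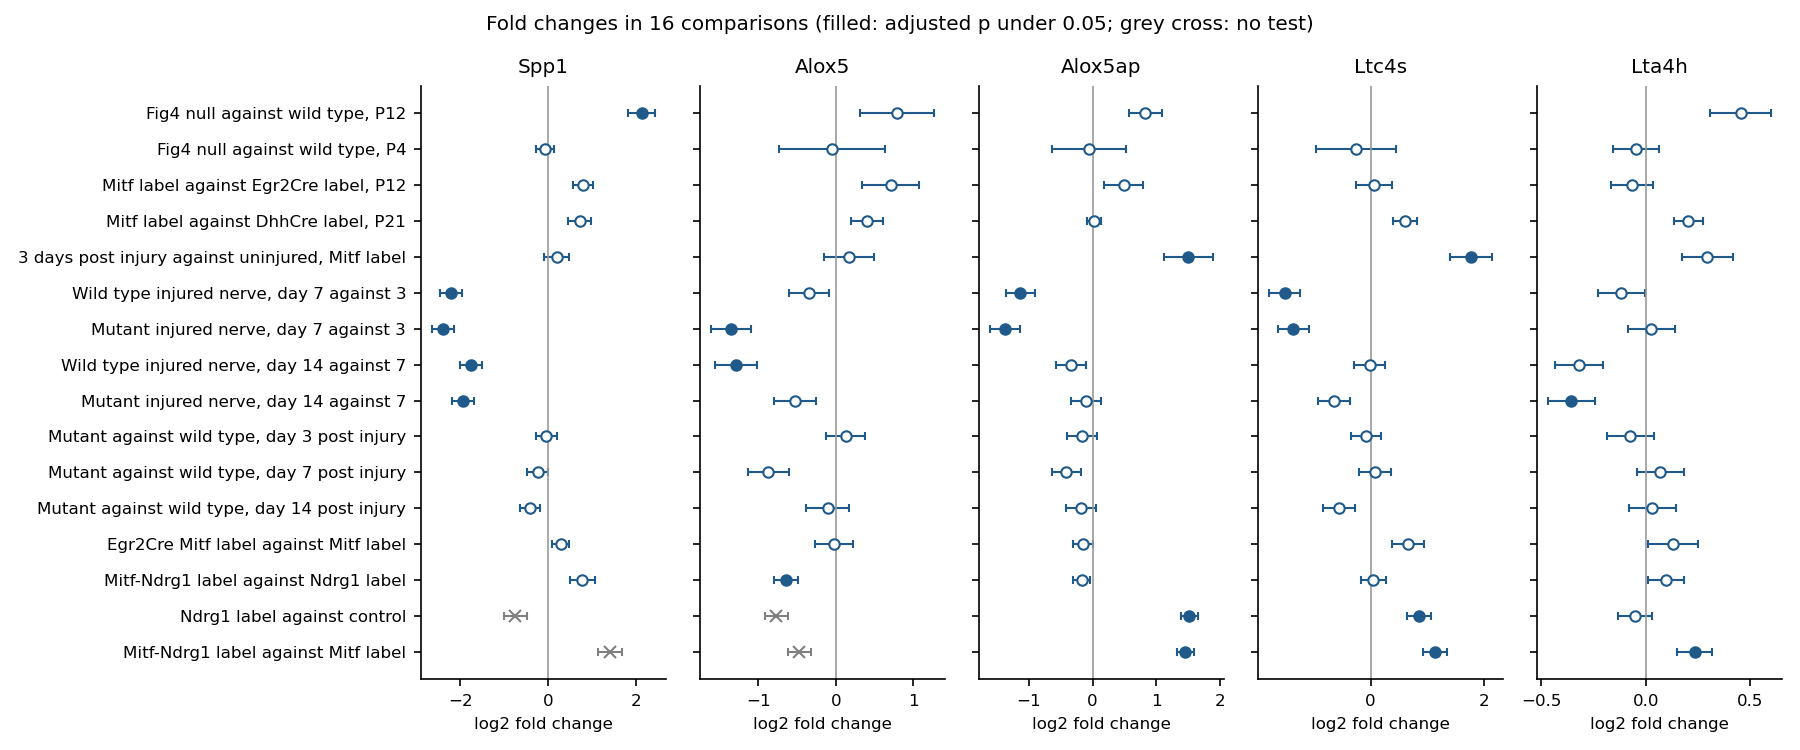
Log2 fold changes of the 5 genes in 16 comparisons (first-named group minus the second), with SE as whiskers; filled points passed the test, open points did not, grey crosses are given without a test (Spp1 and Alox5 against groups that chose the genes), and Ltc4s was not tested in Fig4 at P12. The axes differ between genes; Alox5 is the only gene with a filled point in Mitf-Ndrg1 against Ndrg1 nerves.

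The genes whose levels followed each member most closely were ranked over the 82 libraries by Pearson's r of log2 CPM centred on each table, among 11130 genes. These correlations describe libraries that share tables, depth and cell makeup, and they have no test. Spp1 was followed by Capg (r = 0.833), Vim (0.824) and Anxa2 (0.811), Alox5 by F13a1 (0.733), Dok2 (0.722), Cd163 (0.674), Pf4 (0.67) and Lyve1 (0.643), and Alox5ap by Msr1 (0.921), Fermt3 (0.917) and Pirb (0.909). F13a1, Cd163, Pf4 and Lyve1 are known as genes of resident tissue macrophages, and Msr1 is a scavenger receptor of macrophages. Ltc4s was followed by Commd9 (0.865), Ap2s1 (0.861), Ap1s1 (0.856) and Cfp (0.85), and Lta4h by Litaf (0.715) and Anxa5 (0.697). These rankings changed when levels were centred on the group means instead. The closest genes were then Fgl2 for Spp1 (r = 0.437), F13a1 for Alox5 (0.684) and Cd48 for Alox5ap (0.842). For Ltc4s it was Cbr2 (0.7645) and for Lta4h Ppp1r3b (0.578). Of the genes named before, only F13a1 was again among the closest of its member.

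Among the members themselves, Alox5ap and Ltc4s followed each other most closely, with r = 0.854 when centred on the tables and 0.739 when centred on the groups. Alox5 and Alox5ap had r = 0.394 across the tables and 0.695 within groups. Spp1 had r of 0.546 to 0.636 with the other 4 across the tables and 0.098 to 0.262 within groups. The 82 libraries include those by which the genes were chosen, so the r of Spp1 with Alox5 across the tables is not free of that choice. Within groups Lta4h had r between -0.02 and -0.01 with the 3 other leukotriene genes.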

How the data were processed

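The authors deposited estimated counts for each gene, and the submitters' processing notes name kallisto and mm10; not given in the sources used here are its version, the annotation, how transcripts were summed to genes and any strand setting. Per the labels' protocols, nerves were quick-frozen and libraries made with a stranded mRNA kit. The estimated counts were rounded to whole numbers. Each of the 8 tables was handled separately, except that the difference between the Fig4 ages was fitted over both Fig4 tables joined by their shared symbols, and no column was left unused (0). In R 4.3.3, edgeR 4.0.16 applied filterByExpr with a minimum count of 10, TMM scaling and the robust quasi-likelihood test over all groups of a table, with Benjamini-Hochberg adjustment over all genes of a comparison and a threshold of 0.05. The SE is the log2 fold change divided by the square root of F. CPM values use TMM-scaled library sizes. Similar patterns used log2(CPM + 2). DESeq2 1.42.0, RLE scaling, no filter, a block for the replicate number, a covariate of skeletal muscle markers, the compared groups alone and the omission of each library were the alternatives. The fit was tested on simulated data.

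Replicates of a group differed by more than sampling noise in every pair (chi-square over its degrees of freedom at least 9.61, on genes averaging 20 or more counts), so none was counted as a duplicate. Same-numbered libraries deviated together with r over 0.1 in every pair only in Mitf against DhhCre (r 0.119 to 0.299) and Egr2Cre Mitf against Mitf (r 0.123 to 0.34). A library of the first group was closest to its own number in 2 of 5 and 3 of 3 cases there. In Fig4 at P12 this held in 3 of 3 cases and post injury in 3 of 4, so the rule does not settle which libraries are paired. The genes named are the 5 members, the label genes, listed genes that passed (by smallest p, or with a described role), and the genes most like each member. The members and lists were chosen with earlier results of these data known. Total counts of 15440000 to 34530000 leave Alox5 and Ltc4s with few reads, so counting error adds to their spread.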

Additional observations from a re-analysis of the deposited data

Results flagged for a closer look

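Ltc4s in the control nerves of the table with Ndrg1 had 1 library, replicate 3, that stood above the other 5, at 3.87 CPM, by Dixon's test. Of 40 combinations of gene and group checked this way, 1 stood apart, and chance gives about 1 in 20.

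Spp1 had log2 fold changes of opposite sign in the same table, 0.77 in Mitf-Ndrg1 against Ndrg1 nerves and -1.38 in Mitf against control nerves, with no overlap of the libraries in either contrast. The difference between the 2 contrasts was not tested, and Mitf against control is the contrast by which the genes were chosen.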

How the results depend on the processing

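No direction of a called result was turned by any alternative; the cause of the changes below was not tested. Without the low-count filter, the genes past the test numbered 1131 in Fig4 at P12 (435 as reported), 4 in the Mitf against Egr2Cre labels (2), 656 from day 7 to 14 in wild type (1175) and 1805 in Mutant nerves (2807), and 3 and 846 between genotypes on days 7 and 14 (0 and 1314); the Spp1 difference between the Fig4 ages was 2.20 and passed. With size factors by relative log expression (RLE), 13 genes passed for the Fig4 age difference (23) and 2 on day 7. The rule of r over 0.1 in every same-numbered pair was met only in the Mitf against DhhCre and Egr2Cre Mitf against Mitf tables. With the replicate block, 4 genes passed against DhhCre (2), 0 in Fig4 at P4 (1), 2 for the age difference, 0 against Egr2Cre, 783 from day 7 to 14 in wild type, 856 between genotypes on day 14 and 1 for genotype by time (13). Under that block Spp1 in Ndrg1 nerves, given without a test, was -0.66, Alox5ap post injury had an adjusted p of 0.0996, Lta4h from day 7 to 14 in Mutant nerves had an adjusted p of 0.0505, and Alox5 in Fig4 at P4 was 0.11; it changed no other call of the 5 genes. With the muscle covariate, 76 genes passed in Fig4 at P12, 66 for the age difference, 360 post injury (3365), 461 and 1541 from day 7 to 14 in wild type and Mutant nerves, 307 for genotype by time and 114 in Mitf-Ndrg1 against Ndrg1 nerves (234); Spp1 was 1.81 in Fig4 at P12, 2.26 for the age difference and 0.32 between genotypes on day 3, and Alox5 was 0.0511 in Fig4 at P4, -0.97 from day 3 to 7 in Mutant nerves, -0.17 between genotypes on day 3 and -0.67 in Mitf-Ndrg1 against Ndrg1 nerves. With only the compared groups, 292 and 88 genes passed from day 7 to 14 in wild type and Mutant nerves, 0 between genotypes on day 14, 31 in Mitf-Ndrg1 against Ndrg1 nerves and 3 in Mitf against control nerves (1); Alox5 was -1.25 from day 7 to 14 in wild type nerves and -0.66 in Mitf-Ndrg1 against Ndrg1 nerves, and Spp1 was 0.76 there.

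DESeq2 called 977 genes in Fig4 at P12, 7 at P4, 144 for the age difference with Spp1 at 2.20, 10 against DhhCre, 12 against Egr2Cre, 2433 from day 7 to 14 in wild type nerves, 244 and 2365 between genotypes on days 7 and 14, 434 for genotype by time, 7 in Egr2Cre Mitf against Mitf nerves, 750 in Mitf-Ndrg1 against Ndrg1 nerves and 14 in Mitf against control nerves. Leaving out 1 library at a time gave 146 to 709 genes in Fig4 at P12, 0 to 1 at P4, 5 to 26 for the age difference, 0 to 2 against Egr2Cre, 1816 to 4058 post injury, 176 to 1933 and 1526 to 5144 from day 7 to 14 in wild type and Mutant nerves, 0 to 11 and 139 to 4959 between genotypes on days 7 and 14, 1 to 146 for genotype by time, 58 to 545 in Mitf-Ndrg1 against Ndrg1 nerves and 1 to 3 in Mitf against control nerves. Over the same omissions Spp1 was 1.84 to 2.36 in Fig4 at P12, -0.30 to 0.0438 at P4, 1.93 to 2.44 for the age difference, -0.12 to 0.38 post injury, -0.25 to 0.14 between genotypes on day 3 and -0.84 to -0.60 in Ndrg1 nerves. Alox5 was -0.59 to 0.83 in Fig4 at P4, -0.033 to 1.37 for the age difference, -0.0082 to 0.39 post injury, -1.51 to -1.05 from day 7 to 14 in wild type nerves, -0.41 to 0.12 between genotypes on day 14, -0.24 to 0.090 in Egr2Cre Mitf against Mitf nerves and -0.72 to -0.54 in Mitf-Ndrg1 against Ndrg1 nerves. CPM of the total count moved 10 of 110 group levels by over 1 SD. Ltc4s in Fig4 at P12 was near the floor, with 1 or 2 estimated counts a library in Fig4 +/+ nerves of 21622654 to 24250828 total counts. The other table at P12 held 60 to 102 in Egr2Cre and 72 to 113 in Mitf libraries, of 17065196 to 24424975 total counts. The cause of this difference between tables was not tested.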
